A study of Homo sapiens with 8 samples.

Results

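The proteasome genes described here are 39 that encode subunits of the core and regulatory particles, the base assembly chaperones PSMD5, PSMD9 and PSMD10, the activator caps and the core maturation factor POMP, taken by symbol as PSMA1 to PSMA7, PSMB1 to PSMB7, PSMC1 to PSMC6, PSMD1 to PSMD14, PSME1 to PSME4 and POMP. They are 39 of the 25435 gene rows in the count table. All 39 passed the filter on low counts, which left 13213 genes to test. The cells were HGC27, an established human gastric carcinoma line that the labels describe as being without p53. The cells overexpressed p53 R175H, p53 R248Q or p53 R273H, each a substitution in the DNA-binding domain, or GFP as the control that carried no p53 mutant. Every group thus carried an added gene in a background labelled as lacking p53, and no source used here gives the vector, its promoter or the number of clones. Messenger RNA was sequenced from 2 libraries per group, 8 in all, and the labels do not say whether the 2 came from separate cultures. The p-values below therefore measure only the spread between these libraries.

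The proteasome is the main protease of the cytosol and nucleus for proteins tagged with ubiquitin. Its core particle is a barrel of alpha rings, which gate the entrance, around beta rings, which hold the proteolytic sites. The regulatory particle caps the barrel, and its base of ATPases unfolds the substrate while its lid removes the ubiquitin chain. The genes are known to be transcribed in a coordinated way, by NFE2L1 when proteasome capacity falls and in part by NFE2L2, and mutant p53 proteins have been described as raising them together with NFE2L2 in breast cancer cells.

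Library totals ran between 6800463 and 11788035 counts, and the members had between 266 counts (PSMD9 in R175H replicate 1) and 5443 counts (PSMB4 in R273H replicate 2) in a library. GFP replicate 1 stood apart from the other libraries. The chi-square per degree of freedom between the 2 libraries of a group, over genes, was 1.60 for R175H, 1.21 for R248Q and 1.51 for R273H cells, against 5.72 for GFP cells. In GFP replicate 1 the median deviation from the mean over all libraries was -0.28 (log2) for genes with transcripts of at least 8000 nt and 0.16 for those of at most 1500 nt, while in the other 7 libraries these medians lay between -0.04 and 0.15 and between -0.07 and 0.03. These medians were taken over tested genes of known length with a mean log2 CPM (counts scaled to the library size) above 3. The members' transcripts, with a median length of 1579 nt, were shorter than those of all tested genes, whose median was 3181 nt. Each comparison with GFP is therefore given with both GFP libraries and with GFP replicate 2 alone. Of the mesenchymal markers, VIM had 4612 to 5733 CPM and FN1 33.1 to 45.4 CPM. CDH2, another mesenchymal marker, had 0.206 to 0.854 CPM, with at most 10 counts in a library. The epithelial markers EPCAM, CDH1, KRT18 and KRT19 had at most 3 counts in a library. The gastric markers TFF1, TFF2, GKN1 and PGC had 0 counts in every library, and MUC6 had at most 2. KRT8, another epithelial marker, had up to 39 counts and averaged 0.39 ± 0.08 CPM in R175H cells, 3.08 ± 0.37 CPM in R248Q cells and 1.86 ± 0.87 CPM in R273H cells, against 1.22 ± 0.16 CPM in GFP cells (SD, n = 2 each), and its part in the results was not tested. Summed blood markers lay between 1.62 and 3.36 CPM and summed endothelial markers between 0 and 0.148 CPM.

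The median member changed by -10.2% in R175H cells, -10.3% in R248Q cells and -6.31% in R273H cells against GFP cells, and no member was called higher in any mutant against GFP. A gene was called at an adjusted p below 0.05 after Benjamini-Hochberg adjustment over all 13213 genes, from the quasi-likelihood test of edgeR. In R175H cells 7 of 39 members were called lower (PSMA3, PSMA4, PSMA5, PSMB2, PSMD1, PSMD11 and PSMD12), against 4.59% of all genes tested, and 0 were called higher, against 6.39%. In R248Q cells 5 members were called lower (PSMB4, PSMC6, PSMD6, PSME1 and PSME2), against 1.44% of all genes, and 0 higher, against 4.88%. In R273H cells 0 members were called lower, against 0.25% of all genes, and 0 higher, against 0.757%. At an unadjusted p below 0.05 there were 8 lower and 0 higher members in R273H cells, and DESeq2 and limma-voom also called 0. The unadjusted counts of higher members were 0 in R175H cells and 1 in R248Q cells, and again DESeq2 and limma-voom called 0. The share of all genes at this unadjusted threshold was not computed, so such counts, here and below, have no background beside them. All 3 comparisons share the GFP libraries. Counts are relative to the library, and in bulk RNA fewer cells with a transcript and less of it per cell cannot be told apart.

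The members' median log2 fold change was -0.16 for R175H, -0.16 for R248Q and -0.09 for R273H cells against GFP, beside 0.01, -0.01 and -0.001 for all genes tested. The fold change was below 0 for 38, 37 and 35 of the 39 members in the same order of mutants, against 48.0%, 51.7% and 50.3% of all genes. Both mutant libraries lay below both GFP libraries for 26 members in R175H cells, against 24.3% of all genes, for 30 in R248Q cells, against 25.6%, and for 18 in R273H cells, against 19.3%. Both lay above for 0 members in R175H cells (26.8% of all genes), 1 in R248Q cells (25% of all genes) and 1 in R273H cells (20.1% of all genes). As a share of all counts, the 39 genes took 0.638% and 0.651% in R175H cells, 0.659% and 0.659% in R248Q cells and 0.674% and 0.686% in R273H cells, against 0.754% and 0.696% in GFP cells. The 6 mutant libraries all lay below both GFP libraries in this share, and the 2 GFP libraries lay further apart than those of any mutant.

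Much of the size of this difference came with GFP replicate 1, the library that is high in almost every row of the map of members by library. Against GFP replicate 2 alone the median was -0.08 in R175H cells, -0.09 in R248Q cells and -0.02 in R273H cells. The fold change was then below 0 for 32, 33 and 22 members, against 48.6%, 51.4% and 49.8% of all genes. In R175H cells 7 members were still called lower, against 5.56% of all genes, and 0 higher, against 6.54%: PSMA3, PSMA5, PSMB2, PSMD1 and PSMD12 kept their calls, PSMA4 and PSMD11 lost theirs, and PSMD2 and PSMD3 were added. In R248Q cells only PSMC6 of the 39 remained, against 1.14% of all genes, with 0 higher, against 3.13%. In R273H cells there were 0 lower, against 0.454%, and 0 higher, against 1.06%. Leaving out GFP replicate 2 in its place gave 31 lower members in R175H cells, against 11.6% of all genes, 28 in R248Q cells, against 12.1%, and 19 in R273H cells, against 7%. The R175H count was 2 if R175H replicate 1 was left out and 3 if R175H replicate 2 was. The R248Q count was 0 without either R248Q replicate, 2 without either R175H replicate, 2 without R273H replicate 1 and 1 without R273H replicate 2, since the spread is pooled over groups. With the groups compared as the only ones in the fit, 2 members were called in R175H cells and 0 in R248Q cells. The share of all genes was not computed for this fit or for those without a mutant library. Such counts, here and below, therefore have no background beside them.

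**Figure D1:**
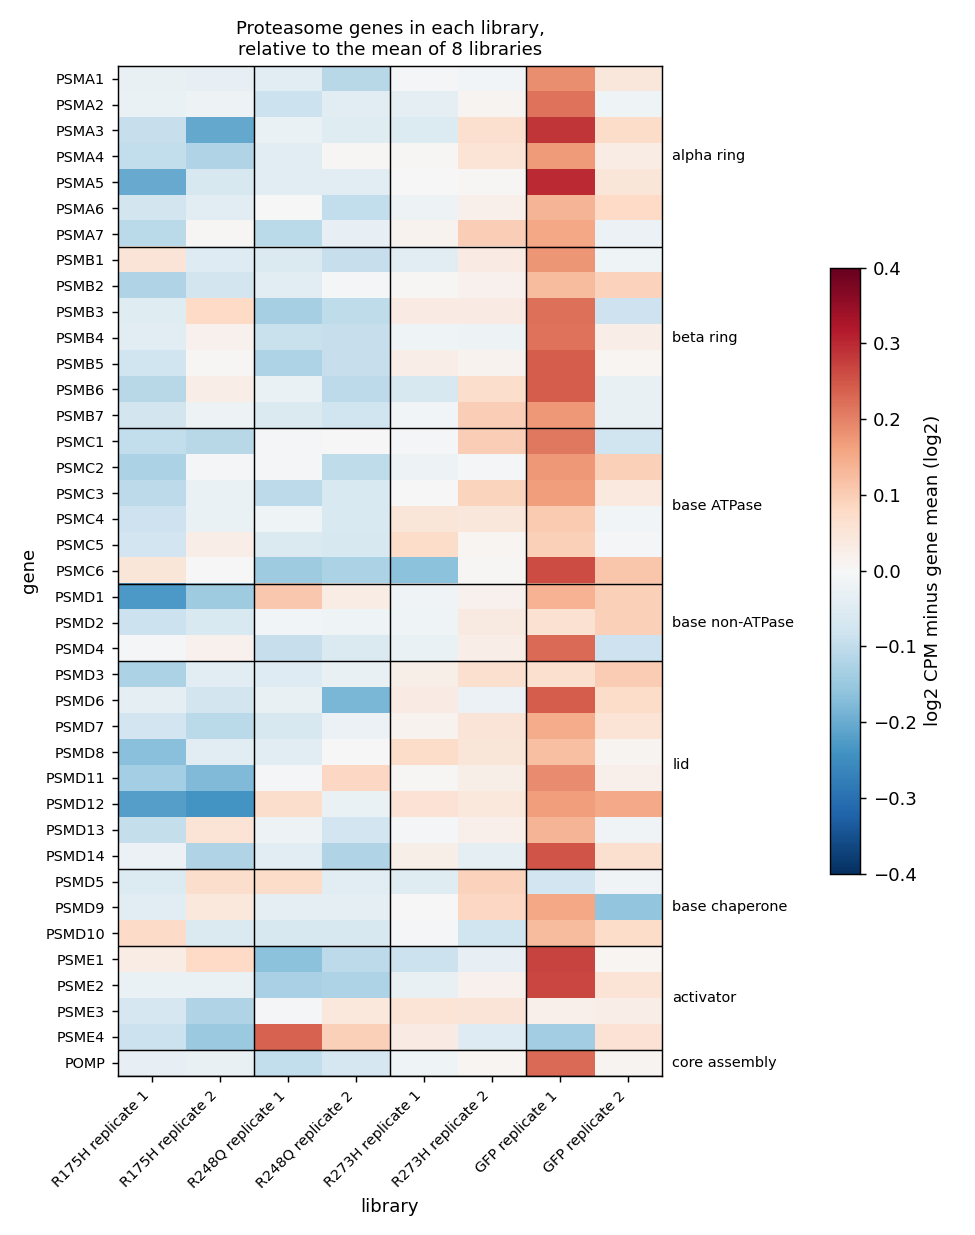
Log2 CPM of each of the 39 proteasome genes (rows, grouped by role) in each of the 8 libraries (columns), relative to the gene's mean over all libraries; blue is lower and red is higher. The median deviation is -0.08 and -0.03 in the R175H libraries, while it is highest in GFP replicate 1, at 0.17, and 0.03 in GFP replicate 2.

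**Figure D2:**
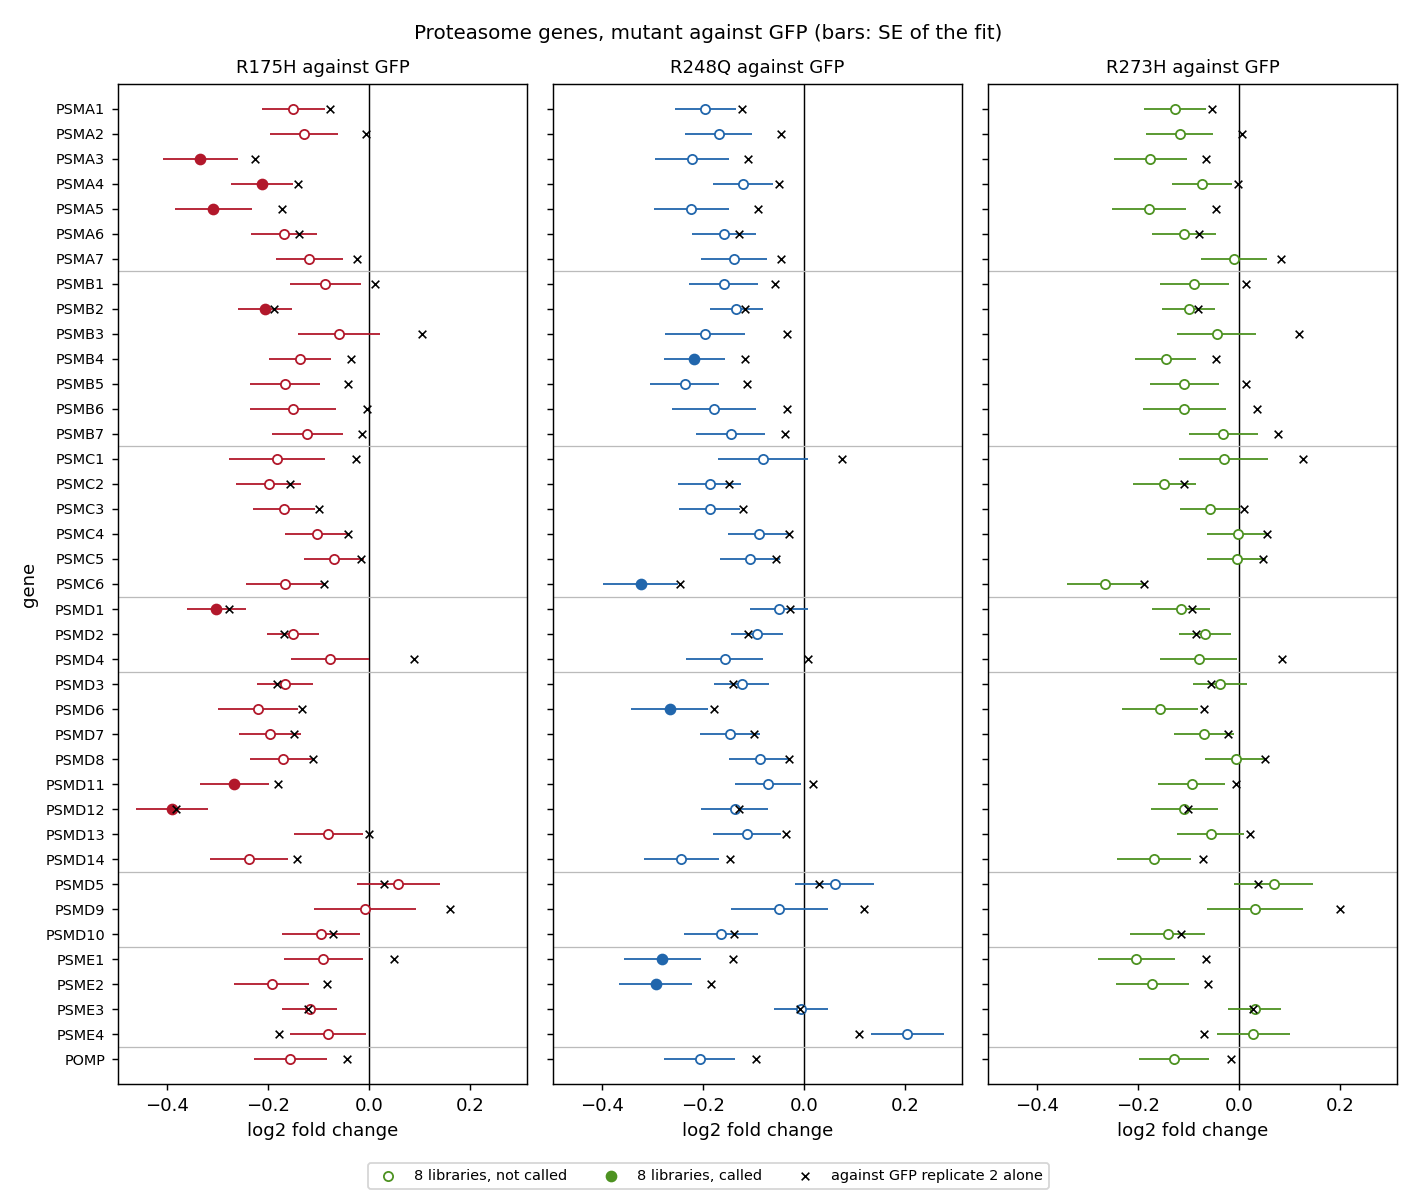
Log2 fold change of each member (rows) in R175H, R248Q and R273H cells against GFP cells; circles give the fit to all 8 libraries with its SE, filled where called at an adjusted p below 0.05, and crosses give the fit against GFP replicate 2 alone. Most circles lie left of 0 in all 3 panels and most crosses lie nearer to 0, with medians of -0.08, -0.09 and -0.02.

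Of the 7 alpha ring genes 3 were called lower in R175H cells, and 2 against GFP replicate 2 alone, with median log2 fold changes of -0.17 and -0.14. With both GFP libraries the alpha ring medians were -0.17 in R248Q cells and -0.12 in R273H cells, where 0 were called. PSMA3, an alpha ring subunit, had 132.6 and 122.7 CPM (TMM-normalised) in R175H cells, 138.8 and 136.6 CPM in R248Q cells and 136.2 and 147.9 CPM in R273H cells, against 172.2 and 148.7 CPM in GFP cells. Every mutant library lay below both GFP libraries. The log2 fold change in R175H cells was -0.33 (SE 0.08, adjusted p = 0.00975, edgeR), and -0.23 against GFP replicate 2 alone. The call was lost in 2 of 18 alternative settings, 1 of them the fit without R175H replicate 2, with adjusted p-values up to 0.134. PSMA5, another alpha ring subunit, had 136.0 and 149.6 CPM in R175H cells, 151.7 and 152.1 CPM in R248Q cells and 156.1 and 157.0 CPM in R273H cells, against 192.5 and 161.7 CPM in GFP cells. Again no mutant library reached the lower GFP library, and GFP replicate 1 lay far above the rest. The fold change in R175H cells was -0.31 (SE 0.08, adjusted p = 0.0162, edgeR), and -0.17 against GFP replicate 2 alone. It was lost in 2 of 18 settings, 1 of them without R175H replicate 1, with adjusted p-values up to 0.192. PSMA4, also of the alpha ring, had 211.0 and 207.6 CPM in R175H cells, 219.0 and 226.5 CPM in R248Q cells and 226.3 and 234.3 CPM in R273H cells, against 253.8 and 230.5 CPM in GFP cells. The R273H libraries overlapped with the GFP libraries and those of the other mutants did not. Its fold change of -0.21 in R175H cells (SE 0.06, adjusted p = 0.0342, edgeR) was not called against GFP replicate 2 alone, at -0.14, and was lost in 10 of 18 settings, including the fit without any 1 of the R175H, R248Q or R273H libraries, with adjusted p-values up to 0.186. The other 4 alpha genes, PSMA1, PSMA2, PSMA6 and PSMA7, had fold changes between -0.17 and -0.12 in R175H cells and were not called.

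The promoters of PSMA3 and PSMA5 are shown because these are the called alpha ring genes whose promoters hold CCAAT boxes, marked by capitals on either strand. Each sequence runs over 250 bases before and 50 bases after the RefSeq start on GRCh38.p14, for PSMA3 chr14:58244593-58244892 on the plus strand and for PSMA5 chr1:109426399-109426698 on the minus strand.
PSMA3: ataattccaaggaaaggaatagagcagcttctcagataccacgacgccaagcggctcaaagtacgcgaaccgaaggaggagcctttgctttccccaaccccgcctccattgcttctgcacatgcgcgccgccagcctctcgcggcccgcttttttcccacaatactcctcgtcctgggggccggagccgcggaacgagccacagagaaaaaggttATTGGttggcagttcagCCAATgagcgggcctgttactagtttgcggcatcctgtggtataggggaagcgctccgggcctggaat
PSMA5: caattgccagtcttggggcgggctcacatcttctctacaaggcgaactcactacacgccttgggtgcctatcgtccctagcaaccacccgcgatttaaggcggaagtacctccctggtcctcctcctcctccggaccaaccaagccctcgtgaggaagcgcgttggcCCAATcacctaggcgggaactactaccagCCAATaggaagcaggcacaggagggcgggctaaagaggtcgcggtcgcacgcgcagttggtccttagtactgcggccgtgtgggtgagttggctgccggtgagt
The PSMA3 promoter holds a CCAAT at -35 on the minus strand and at -18 on the plus strand, and the PSMA5 promoter at -83 and -54, both on the plus strand.

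All 7 beta ring genes were higher in GFP replicate 1 than in GFP replicate 2, and their medians of -0.14 in R175H cells, -0.18 in R248Q cells and -0.10 in R273H cells became -0.01, -0.06 and 0.01 against GFP replicate 2 alone. PSMB2, a non-catalytic beta subunit, had 254.8 and 262.9 CPM in R175H cells, 268.9 and 275.5 CPM in R248Q cells and 277.5 and 280.0 CPM in R273H cells, against 302.3 and 295.1 CPM in GFP cells. It is a member whose 2 GFP libraries lay close together, and all 6 mutant libraries were lower. Its fold change in R175H cells was -0.21 (SE 0.05, adjusted p = 0.0213, edgeR), and -0.19 against GFP replicate 2 alone, where it was called as well. The call was lost in 6 of 18 settings, 5 of them leaving out a library (either R175H, either R248Q or R273H replicate 2), with adjusted p-values up to 0.173. PSMB4, another non-catalytic beta subunit, had 458.3 and 477.5 CPM in R175H cells, 443.3 and 442.0 CPM in R248Q cells and 465.5 and 464.7 CPM in R273H cells, against 548.5 and 480.2 CPM in GFP cells. The R248Q libraries were the lowest, and GFP replicate 1 stood far above all others. Its fold change in R248Q cells was -0.22 (SE 0.06, adjusted p = 0.0445, edgeR) and -0.12 against GFP replicate 2 alone, where it was not called. It was lost in 12 of 18 settings, and kept its call without GFP replicate 2 but not without any other single library, with adjusted p-values up to 0.302.

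The 3 catalytic subunits of the constitutive core were not called in any comparison in the fit to all 8 libraries with the filter on low counts. With no filter beyond 1 count PSMB5 was called lower in R248Q cells (-0.23, adjusted p = 0.00601, edgeR). Against GFP, without GFP replicate 2, PSMB5 and PSMB6 were called lower in all 3 mutants and PSMB7 in R175H and R248Q cells, with fold changes between -0.35 and -0.22 and adjusted p-values up to 0.00378 in edgeR. PSMB5, which carries the chymotrypsin-like site, had 204.8 and 216.9 CPM in R175H cells, 198.8 and 203.2 CPM in R248Q cells and 220.4 and 218.7 CPM in R273H cells, against 255.8 and 217.3 CPM in GFP cells. GFP replicate 2 lay between the R273H and the R175H libraries, and only GFP replicate 1 was well above. The fold changes were -0.17 (SE 0.07) in R175H cells, -0.24 (SE 0.07, adjusted p = 0.0523, edgeR) in R248Q cells and -0.11 (SE 0.07) in R273H cells. Against GFP replicate 2 alone they were -0.04, -0.11 and 0.01. PSMB6, which carries the caspase-like site, had 116.1 and 127.5 CPM in R175H cells, 123.1 and 116.5 CPM in R248Q cells and 119.8 and 131.6 CPM in R273H cells, against 148.1 and 122.6 CPM in GFP cells. Each mutant overlapped with GFP replicate 2. PSMB7, which carries the trypsin-like site, had 167.8 and 174.2 CPM in R175H cells, 169.6 and 167.0 CPM in R248Q cells and 175.2 and 188.9 CPM in R273H cells, against 199.2 and 172.8 CPM in GFP cells. Its 2 R248Q libraries lay below both GFP libraries, and those of R175H and R273H overlapped with GFP. For PSMB6 and PSMB7 the fold changes in R175H, R248Q and R273H cells lay between -0.18 and -0.03, and against GFP replicate 2 alone between -0.04 and 0.08. PSMB1 and PSMB3, the remaining beta genes, had fold changes between -0.20 and -0.04 and were not called.

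Among the ATPases of the base, PSMC6 was the one gene called in the fit to all 8 libraries without length correction, in R248Q cells. It had 84.8 and 82.1 CPM in R175H cells, 74.3 and 75.1 CPM in R248Q cells and 73.2 and 82.3 CPM in R273H cells, against 98.3 and 88.6 CPM in GFP cells. All 6 mutant libraries lay below both GFP libraries, and the R248Q libraries lay close together. The fold change was -0.32 in R248Q cells (SE 0.07, adjusted p = 0.0163, edgeR), -0.27 in R273H cells (SE 0.07, adjusted p = 0.122) and -0.17 in R175H cells (SE 0.08, adjusted p = 0.187). Against GFP replicate 2 alone PSMC6 was the only member called in R248Q cells, at -0.25 with an adjusted p of 0.0363 in edgeR. The R248Q call was lost in 4 of 18 settings, 2 of them leaving out 1 R248Q replicate, with adjusted p-values up to 0.172. PSMC1 to PSMC5, the other ATPases, had fold changes between -0.20 and -0.07 in R175H cells, -0.19 and -0.08 in R248Q cells and -0.15 and -0.003 in R273H cells. With each library corrected for transcript length, PSMC2 and PSMC3 were called lower in R175H cells (adjusted p = 0.0161 and 0.0450, edgeR). PSMC6 was then called lower in R248Q and R273H cells (adjusted p = 0.0128 and 0.0469, edgeR).

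PSMD1, the large scaffold subunit of the base, was lower in R175H cells than in every other group. It had 177.5 and 188.7 CPM in R175H cells, 224.3 and 212.5 CPM in R248Q cells and 206.4 and 210.8 CPM in R273H cells, against 229.3 and 222.4 CPM in GFP cells. The R175H libraries overlapped with no other library, and the R248Q libraries overlapped with those of GFP. The fold change in R175H cells was -0.30 (SE 0.06, adjusted p = 0.00362, edgeR), a change of -18.9%, and -0.28 against GFP replicate 2 alone. This call was lost in 1 of 18 settings, without R175H replicate 1, where the adjusted p was 0.0794, the highest over the settings. In R248Q cells the fold change against GFP was -0.05 (SE 0.06) and in R273H cells -0.12 (SE 0.06), neither called. PSMD2, the other large scaffold of the base, had fold changes of -0.15, -0.09 and -0.07 in R175H, R248Q and R273H cells, and PSMD4, a ubiquitin receptor, of -0.08, -0.16 and -0.08, with no call in the fit to all 8 libraries. PSMD2 was called lower in R175H cells against GFP replicate 2 alone, at -0.17 (adjusted p = 0.00972, edgeR), and with each library corrected for transcript length, at -0.16 (adjusted p = 0.00850, edgeR). The PSMD1 promoter is shown because it holds TGACNNNGC (capitals), the core letters of the antioxidant response element that NFE2L1 and NFE2L2 bind with small Maf partners. Its window is chr2:231056617-231056916 on the plus strand of GRCh38.p14, and the match starts 40 bases after the start site on the plus strand.
PSMD1: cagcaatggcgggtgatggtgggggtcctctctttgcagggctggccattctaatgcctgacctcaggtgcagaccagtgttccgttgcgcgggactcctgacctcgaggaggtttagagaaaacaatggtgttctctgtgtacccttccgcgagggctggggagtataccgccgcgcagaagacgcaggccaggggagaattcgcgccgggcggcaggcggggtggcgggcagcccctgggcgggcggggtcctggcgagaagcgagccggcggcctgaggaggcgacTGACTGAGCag

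PSMD12, a scaffold subunit of the lid, had the largest fall of any member in R175H cells. It had 64.2 and 63.4 CPM in R175H cells, 78.5 and 73.4 CPM in R248Q cells and 77.8 and 77.1 CPM in R273H cells, against 84.0 and 83.1 CPM in GFP cells. The R175H libraries lay below all others, and the GFP libraries agreed closely. The group means were 63.8 ± 0.58 CPM in R175H cells and 83.5 ± 0.65 CPM in GFP cells (SD, n = 2 each). The fold change in R175H cells was -0.39 (SE 0.07, adjusted p = 0.00213, edgeR), a change of -23.7%, and -0.38 against GFP replicate 2 alone. It was called in all 18 alternative settings, with values between -0.43 and -0.38 and adjusted p-values up to 0.0397. In R248Q and R273H cells its fold changes against GFP were -0.14 (SE 0.07) and -0.11 (SE 0.07), not called. The PSMD12 promoter, chr17:67366528-67366827 on the minus strand of GRCh38.p14, also holds TGACNNNGC (capitals), starting at -165 on the gene's own strand, and is shown to set beside that of PSMD1.
PSMD12: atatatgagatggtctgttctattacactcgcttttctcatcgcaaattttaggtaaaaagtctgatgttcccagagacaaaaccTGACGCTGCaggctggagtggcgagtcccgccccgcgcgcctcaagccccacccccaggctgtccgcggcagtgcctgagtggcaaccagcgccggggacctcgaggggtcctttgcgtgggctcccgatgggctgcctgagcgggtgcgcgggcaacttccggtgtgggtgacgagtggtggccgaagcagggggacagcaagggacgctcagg

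**Figure D3:**
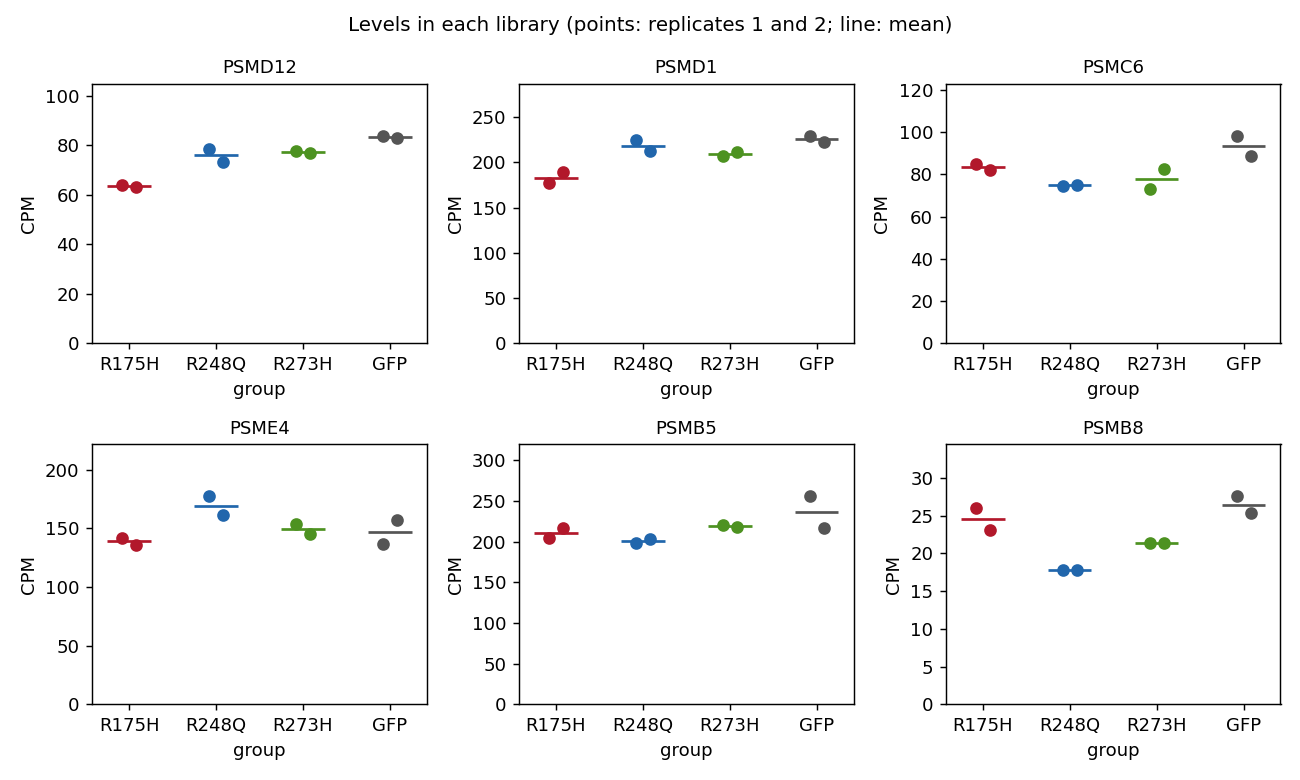
TMM-normalised CPM of PSMD12, PSMD1, PSMC6, PSME4, PSMB5 and PSMB8 in the 2 libraries of each group (points) with the group mean (line), on axes that start at 0. PSMD12 and PSMD1 are lowest in R175H cells, PSMC6 and PSMB8 are lowest in R248Q cells, and PSME4 is highest there, while the GFP libraries differ most for PSMB5.

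PSMD11, another lid subunit, had 124.2 and 120.7 CPM in R175H cells, 135.7 and 144.7 CPM in R248Q cells and 136.9 and 138.9 CPM in R273H cells, against 155.7 and 138.5 CPM in GFP cells. The R175H libraries were the lowest, and the R248Q and R273H libraries lay around GFP replicate 2. Its fold change in R175H cells was -0.27 (SE 0.07, adjusted p = 0.0200, edgeR), and -0.18 against GFP replicate 2 alone, where the adjusted p was 0.0510. The call was lost in 4 of 18 settings, 3 of them without GFP replicate 1 or either R175H replicate, with adjusted p-values up to 0.152. PSMD6, also of the lid, had 74.7 and 73.0 CPM in R175H cells, 75.2 and 67.6 CPM in R248Q cells and 78.6 and 75.5 CPM in R273H cells, against 90.8 and 80.8 CPM in GFP cells. Every mutant library was below both GFP libraries, with the lowest value in R248Q replicate 2. Its fold change in R248Q cells was -0.27 (SE 0.08, adjusted p = 0.0497, edgeR), and -0.18 without a call against GFP replicate 2 alone. The call was lost in 13 of 18 settings, including the fit without any 1 library other than GFP replicate 2, with adjusted p-values up to 0.390. PSMD14, the deubiquitinase of the lid, had fold changes of -0.24, -0.24 and -0.17 in R175H, R248Q and R273H cells, with adjusted p-values of 0.0596, 0.0623 and 0.345 in edgeR. PSMD3, PSMD7, PSMD8 and PSMD13, the other lid genes, had values between -0.20 and -0.006 over the 3 comparisons. None of them was called in the fit to all 8 libraries without length correction. With each library corrected for transcript length, PSMD3, PSMD7 and PSMD14 were called lower in R175H cells (adjusted p = 0.0449, 0.0364 and 0.0316, edgeR). PSMD8 and PSMD13 were not. Over the 8 lid genes the median was -0.21 in R175H cells, -0.13 in R248Q cells and -0.08 in R273H cells.

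The 3 chaperones that assemble the base had fold changes on both sides of 0, and none was called. PSMD5 had fold changes of 0.06, 0.06 and 0.07 in R175H, R248Q and R273H cells, PSMD9 of -0.01, -0.05 and 0.03, and PSMD10 of -0.09, -0.16 and -0.14.

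Of the 4 activator genes, 2 were called lower in R248Q cells against GFP and 1 was called higher in R248Q than in R175H cells. PSME1 and PSME2 encode the subunits of the ring-shaped activator that interferon-gamma induces and that opens the core without ATP. PSME1 had 110.4 and 114.1 CPM in R175H cells, 96.4 and 100.5 CPM in R248Q cells and 101.8 and 105.7 CPM in R273H cells, against 130.2 and 108.6 CPM in GFP cells. The R248Q and R273H libraries lay below both GFP libraries, and the R175H libraries overlapped with GFP. PSME2 had 86.9 and 86.8 CPM in R175H cells, 80.8 and 81.1 CPM in R248Q cells and 86.6 and 89.6 CPM in R273H cells, against 106.4 and 91.9 CPM in GFP cells. All mutant libraries were below both GFP libraries, and R248Q was lowest. In R248Q cells the fold changes were -0.28 for PSME1 (SE 0.08, adjusted p = 0.0395, edgeR) and -0.29 for PSME2 (SE 0.07, adjusted p = 0.0236, edgeR). Against GFP replicate 2 alone they were -0.14 and -0.18, neither called. The PSME1 call was lost in 12 of 18 settings, including the fit without any 1 library other than GFP replicate 2, with adjusted p-values up to 0.466. The PSME2 call was lost in 8, 4 of them without GFP replicate 1, either R248Q replicate or R273H replicate 2, with adjusted p-values up to 0.289.

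PSME4, a single large protein that caps the core, was highest in R248Q cells. It had 141.9 and 135.7 CPM in R175H cells, 177.3 and 161.0 CPM in R248Q cells and 153.9 and 145.2 CPM in R273H cells, against 136.8 and 156.8 CPM in GFP cells. The R248Q libraries were above all others, and R175H and R273H overlapped with GFP. Its fold change in R248Q cells was 0.21 against GFP (SE 0.07, adjusted p = 0.103, edgeR), not called, and 0.11 against GFP replicate 2 alone. PSME3, which forms a nuclear activator ring, had fold changes of -0.12, -0.01 and 0.03 in R175H, R248Q and R273H cells. POMP, which is needed for maturation of the core, had 108.6 and 109.0 CPM in R175H cells, 104.0 and 106.1 CPM in R248Q cells and 109.9 and 111.8 CPM in R273H cells, against 130.03 and 112.1 CPM in GFP cells. All mutant libraries lay below both GFP libraries, the R273H ones narrowly, and none of its fold changes of -0.16, -0.21 and -0.13 was called.

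The activator promoters are shown for the genes called, all 3 of which hold TGACNNNGC, in capitals. On GRCh38.p14 they are chr14:24135944-24136243 on the plus strand for PSME1, chr14:24146561-24146860 on the minus strand for PSME2 and chr2:53970944-53971243 on the minus strand for PSME4, where the motif lies on the strand opposite to the gene and so reads in reverse complement.
PSME1: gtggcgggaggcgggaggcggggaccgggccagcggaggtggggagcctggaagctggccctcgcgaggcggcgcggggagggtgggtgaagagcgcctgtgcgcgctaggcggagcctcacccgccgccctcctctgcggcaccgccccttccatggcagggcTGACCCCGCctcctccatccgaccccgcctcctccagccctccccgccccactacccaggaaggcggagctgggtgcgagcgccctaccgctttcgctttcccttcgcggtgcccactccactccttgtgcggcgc
PSME2: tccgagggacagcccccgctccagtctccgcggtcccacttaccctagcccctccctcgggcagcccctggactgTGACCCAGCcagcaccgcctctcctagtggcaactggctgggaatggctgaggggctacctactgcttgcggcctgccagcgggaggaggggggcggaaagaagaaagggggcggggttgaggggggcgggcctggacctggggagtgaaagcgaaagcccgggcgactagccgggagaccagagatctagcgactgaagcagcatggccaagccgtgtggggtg
PSME4: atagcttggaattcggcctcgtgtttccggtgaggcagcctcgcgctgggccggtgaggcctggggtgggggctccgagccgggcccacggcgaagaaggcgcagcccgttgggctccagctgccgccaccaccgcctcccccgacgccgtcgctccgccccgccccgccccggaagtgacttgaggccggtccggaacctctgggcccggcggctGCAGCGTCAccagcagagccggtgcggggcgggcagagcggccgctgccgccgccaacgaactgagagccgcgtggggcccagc
The matches start at -86 in PSME1, -175 in PSME2 and -34 in PSME4.

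RefSeq promoters on GRCh38.p14 were matched for 34 of the 39 members, all except PSMA7, PSMB1, PSMB6, PSMB7 and PSMD4. On either strand TGACNNNGC was found in 10 of the 34, or 29.4%, against 13.6% of 27305 promoters of the same length. CCAAT was found in 16 of the 34, or 47.1%, against 35.7%. No CCAAT match overlapped a TGACNNNGC match in a member. By particle, TGACNNNGC was in 1 of 10 PSMA and PSMB promoters and 6 of 19 PSMC and PSMD promoters, and CCAAT in 6 of 10 and 9 of 19. Of the 7 genes lower in R175H cells 2 hold TGACNNNGC (PSMD1 and PSMD12) and 3 hold CCAAT (PSMA3, PSMA5 and PSMB2). Of the 5 lower in R248Q cells 2 hold TGACNNNGC (PSME1 and PSME2) and 1 holds CCAAT (PSMD6). These matches describe letters in the window, and binding was not measured.

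Core particle genes (14 PSMA and PSMB) were set beside regulatory particle genes (20 PSMC and PSMD, which include the 3 chaperones that assemble the base). In R175H cells 4 core and 3 regulatory genes were called lower, with medians of -0.15 and -0.17, a difference of 0.02. In R248Q cells 1 core and 2 regulatory genes were called, with medians of -0.17 and -0.12, a difference of -0.06. In R273H cells the medians were -0.11 and -0.07, a difference of -0.04, with 0 called in either. Against GFP replicate 2 alone the core and regulatory medians were -0.04 and -0.11 in R175H cells, -0.07 and -0.08 in R248Q cells and 0.002 and -0.01 in R273H cells. The differences there were 0.07, 0.002 and 0.02, and the sign turned in R248Q and R273H cells. With the 3 chaperones left out, an alternative added after the data were seen, the 17 regulatory genes gave differences of 0.02, -0.05 and -0.04 with both GFP libraries and 0.09, 0.02 and 0.02 against GFP replicate 2 alone. The pooled SD between replicates of this difference of medians within a library was 0.03. The summed counts of core genes divided by those of regulatory genes were 0.994 and 0.990 in R175H cells, 0.953 and 0.965 in R248Q cells and 0.968 and 0.976 in R273H cells, against 1.02 and 0.961 in GFP cells. The 2 GFP libraries spanned all mutant values except 1 R248Q library. The core genes also have shorter transcripts, with a median of 1012.5 nt against 2074.5 nt for the regulatory genes, and length moves with the deviation of GFP replicate 1. With each library corrected for transcript length the differences were 0.04 in R175H cells, -0.01 in R248Q cells and -0.01 in R273H cells.

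**Figure D4:**
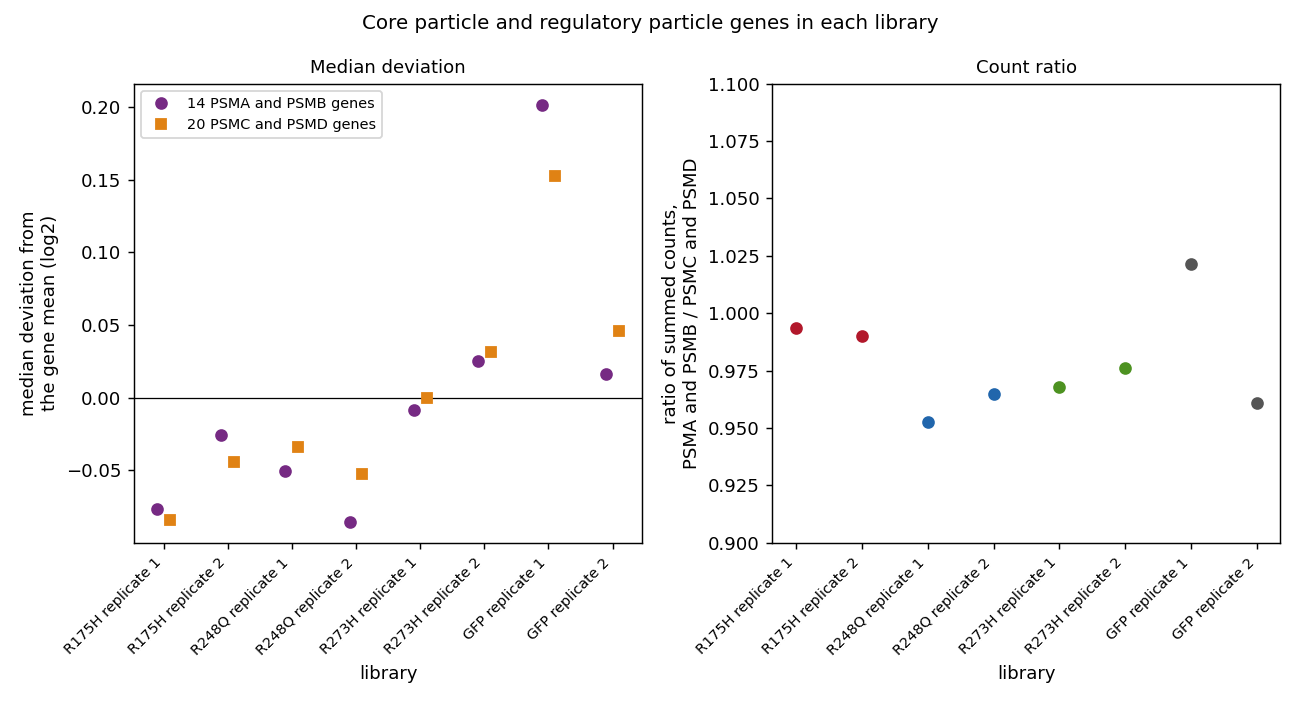
Left, median deviation (log2) of the 14 PSMA and PSMB genes and of the 20 PSMC and PSMD genes from each gene's mean over the 8 libraries, by library; right, summed counts of the PSMA and PSMB genes divided by those of the PSMC and PSMD genes, on an axis that does not start at 0. The median of the PSMA and PSMB genes is 0.20 in GFP replicate 1 and 0.02 in GFP replicate 2, and the ratios there are 1.02 and 0.961.

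The comparisons between mutants do not use the GFP libraries for their fold changes, and use them only for the pooled spread. PSMD1, PSMD12 and PSME4 were called higher in R248Q than in R175H cells, 3 of 39 members against 3.22% of all genes tested, and 0 were called lower, against 3.95%. The fold changes were 0.25 for PSMD1 (SE 0.06, adjusted p = 0.0148, edgeR), 0.25 for PSMD12 (SE 0.07, adjusted p = 0.0386, edgeR) and 0.29 for PSME4 (SE 0.07, adjusted p = 0.0258, edgeR). For each of the 3 the R248Q libraries lay above both R175H libraries, by the values given with each gene. The promoters of all 3 hold TGACNNNGC, as shown with each gene, against 10 of the 34 matched members and 13.6% of all promoters. PSMB3, PSMC4, PSMD3, PSMD5, PSMD9, PSME1 and PSME2 also hold it and were not called in this comparison in the fit to all 8 libraries. A link between the motif and the calls was not tested. The call was lost in 4 of 18 settings for PSMD1, 8 for PSMD12 and 6 for PSME4. The replicate block ended the calls of PSMD12 and PSME4, and DESeq2 that of PSMD12. None of the 3 calls held without either R175H or either R248Q replicate, and the fit then called 0 members. It called 1 without R273H replicate 2. The adjusted p-values over all settings reached 0.215, 0.312 and 0.298. Without GFP replicate 1, 4 were called higher, with PSMD11 added, and PSMB3 and PSME1 were called lower, against 9.32% and 9.11% of all genes, and without GFP replicate 2 there were 2 lower members, against 9.1%. The median over the 39 was -0.02, and both R248Q libraries lay above both R175H libraries for 13 members (28.2% of all genes) and below for 12 (27.8%). At an unadjusted p below 0.05 there was 1 lower member, and DESeq2 and limma-voom called 0 lower.

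In R273H against R175H cells PSMD12 was the 1 member called higher, against 1.41% of all genes, with a fold change of 0.28 (SE 0.07, adjusted p = 0.0349, edgeR), and 0 were lower, against 2.22%. Both R273H libraries lay above both R175H libraries for 23 members, against 24.9% of all genes, and below for 1, against 26.4%. The median was 0.06, with 33 members above 0 and 6 below, against 50.5% of all genes below 0. The PSMD12 call was lost in 8 of 18 settings, 6 of them leaving out an R175H, R248Q or R273H library, where 0 members were called, with adjusted p-values up to 0.241. Without GFP replicate 1, 8 members were called higher, PSMA3, PSMA4, PSMD1, PSMD3, PSMD8, PSMD11, PSMD12 and PSME3, against 5.89% of all genes, and 0 lower, against 6.47%, and without GFP replicate 2 there were 8 higher. At an unadjusted p below 0.05 there were 0 lower members, and DESeq2 and limma-voom called 0 lower. The share of all genes was not computed for the higher calls without GFP replicate 2.

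Between R273H and R248Q cells 0 members were called, against 0.00757% of all genes higher and 0.144% lower. At an unadjusted p below 0.05 there were 1 higher and 1 lower, and DESeq2 and limma-voom called 0. Both R273H libraries lay above both R248Q libraries for 25 members, against 23.6% of all genes, and below for 2, against 23%, with a median of 0.07. Without GFP replicate 1, PSMA7, PSMB3 and PSMC3 were called higher and PSME4 lower, against 1.46% and 2.88% of all genes. Without GFP replicate 2 members were again called in both directions, and the share of all genes was not computed for that fit.

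**Figure D5:**
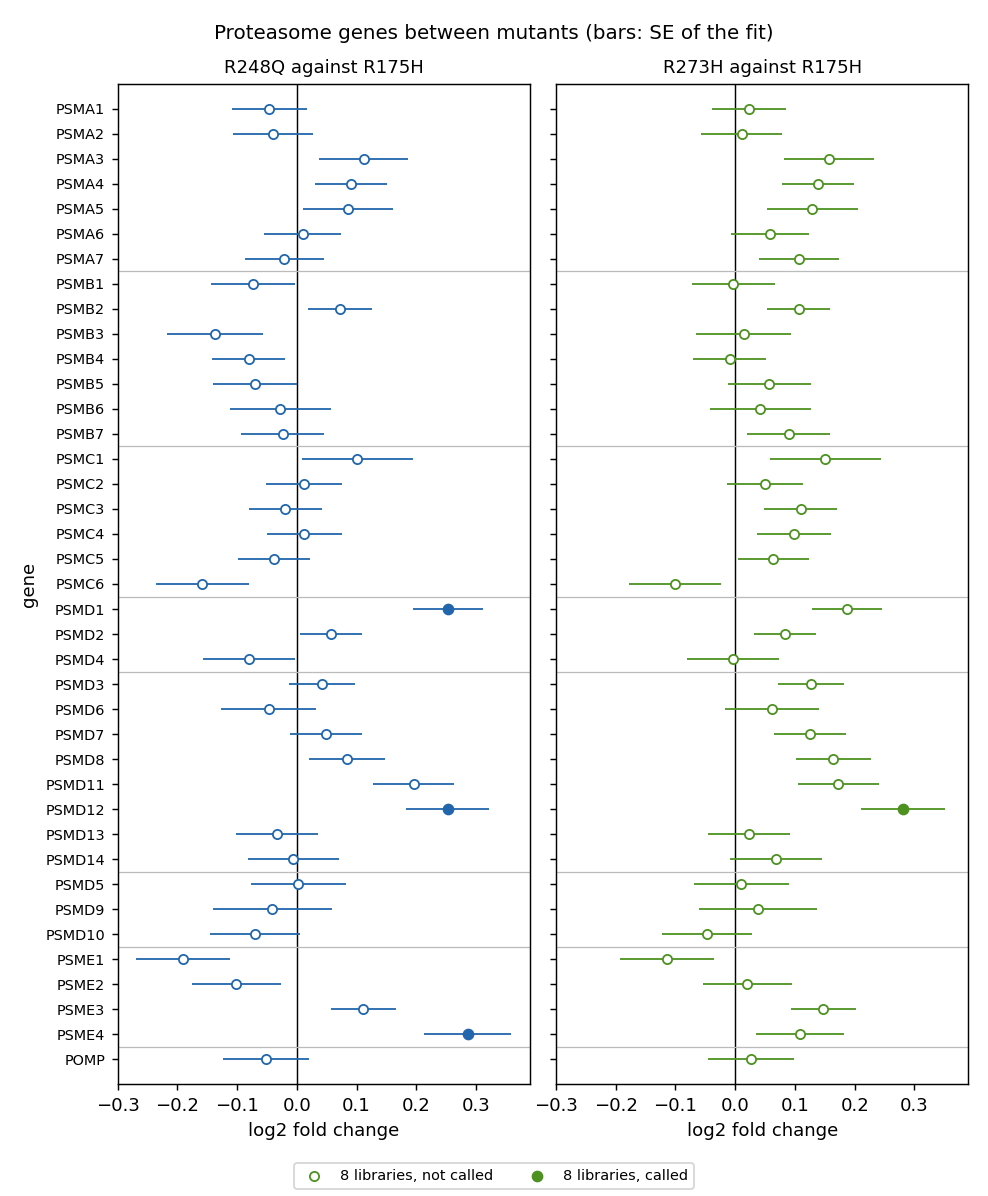
Log2 fold change of each member (rows) in R248Q against R175H cells and in R273H against R175H cells, with its SE; filled circles are called at an adjusted p below 0.05. PSMD1, PSMD12 and PSME4 are filled on the left at 0.25, 0.25 and 0.29, and PSMD12 on the right at 0.28.

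Members' fold changes varied with transcript length to a different degree in each comparison. Across the 39 genes, which share libraries and are not independent replicates, Pearson's r of fold change with log2 transcript length was -0.25 for R175H, 0.51 for R248Q and 0.16 for R273H cells against GFP, with no test. The value against GFP replicate 2 alone was -0.45 for R175H, 0.29 for R248Q and -0.19 for R273H cells, so the sign turned for R273H. Between mutants it was 0.66 for R248Q against R175H, 0.42 for R273H against R175H and -0.67 for R273H against R248Q. In R248Q cells long transcripts were also the higher ones among tested genes of known length with a mean log2 CPM above 3. Those of at least 8000 nt had median deviations of 0.15 and 0.13. With each library corrected for length, the lower calls numbered 14 in R175H cells, 3 in R248Q cells (PSMA5, PSMC6 and PSME2) and 1 in R273H cells (PSMC6), against 8.57%, 3.12% and 0.848% of all genes. In R175H cells they were the genes called without the correction, with PSMC2, PSMC3, PSMD2, PSMD3, PSMD7, PSMD14 and PSME4 added.

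The inducible subunits, which replace the catalytic ones in the immunoproteasome, had their lowest group means in R248Q cells. For PSMB9 the R248Q and R273H libraries overlapped, and for PSMB10 the R248Q libraries lay only narrowly below those of R175H cells. PSMB8 had 25.97 and 23.1 CPM in R175H cells, 17.7 and 17.7 CPM in R248Q cells and 21.4 and 21.3 CPM in R273H cells, against 27.5 and 25.3 CPM in GFP cells. The R248Q libraries were below all others, and the R273H libraries lay between them and the rest. Its fold change was -0.58 in R248Q cells (SE 0.10, adjusted p = 0.00260, edgeR), called in all 18 settings with values between -0.64 and -0.45 and adjusted p-values up to 0.0485. It was -0.46 in R248Q against R175H cells (SE 0.11, adjusted p = 0.0150, edgeR), a call lost in 5 of 18 settings, 4 of them without either R175H or either R248Q replicate, with adjusted p-values up to 0.149. PSMB10 had 23.0 and 22.4 CPM in R175H cells, 22.1 and 21.2 CPM in R248Q cells and 22.8 and 24.3 CPM in R273H cells, against 32.1 and 24.95 CPM in GFP cells. All mutant libraries were below both GFP libraries. It was called lower in R248Q cells at -0.40 (SE 0.11, adjusted p = 0.0453, edgeR), but at -0.20 was not called against GFP replicate 2 alone, and was lost in 13 of 18 settings, including the fit without any 1 library other than GFP replicate 2, with adjusted p-values up to 0.597. PSMB9 had 10.9 and 9.08 CPM in R175H cells, 8.10 and 8.995 CPM in R248Q cells and 8.54 and 8.88 CPM in R273H cells, against 14.8 and 9.98 CPM in GFP cells. It was not called, at -0.54 in R248Q cells (SE 0.17, adjusted p = 0.0751, edgeR), and at -0.22 (adjusted p = 0.655, edgeR) against GFP replicate 2 alone. Of the 5 inducible or tissue-specific core genes 3 were tested, of which 2 were lower in R248Q cells, against 1.44% of all genes (1 with GFP replicate 2 alone, against 1.14%), and 0 in R175H or R273H cells in edgeR, where 1 and 3 were lower at an unadjusted p below 0.05, and PSMA8 and PSMB11 had 0 counts.

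Of 12 further subunits, bound factors and assembly chaperones, 1 was called lower and 1 higher in R175H cells, against 4.59% and 6.39% of all genes, 0 lower and 1 higher in R248Q cells, against 1.44% and 4.88%, and 0 in R273H cells in edgeR. At an unadjusted p below 0.05 there were 4 lower in R248Q cells and 1 lower and 1 higher in R273H cells. ADRM1, a ubiquitin receptor of the base, had 197.6 and 202.2 CPM in R175H cells, 210.8 and 217.8 CPM in R248Q cells and 228.6 and 221.9 CPM in R273H cells, against 236.7 and 228.3 CPM in GFP cells. The R175H libraries were the lowest, with a fold change of -0.22 (SE 0.06, adjusted p = 0.0204, edgeR). KIAA0368, the row for the proteasome-binding adaptor ECPAS, had 308.5 and 289.6 CPM in R175H cells, 307.4 and 296.7 CPM in R248Q cells and 295.6 and 275.3 CPM in R273H cells, against 243.4 and 266.7 CPM in GFP cells. All mutant libraries lay above both GFP libraries, with fold changes of 0.23 in R175H cells (SE 0.06, adjusted p = 0.0284, edgeR) and 0.24 in R248Q cells (SE 0.06, adjusted p = 0.0269, edgeR). Against GFP replicate 2 alone the fold changes were 0.16 and 0.18 for KIAA0368 and -0.19 for ADRM1. The KIAA0368 calls were lost in 9 of 18 settings in R175H cells and in 6 in R248Q cells. Both were lost with only the groups compared and with the replicate block, and the R175H call also in DESeq2. The ADRM1 call was lost in 5 of 18 settings, including only the groups compared. Leaving out either R248Q replicate ended all 3 calls, either R175H replicate those in R175H cells, and either R273H replicate those of KIAA0368, with adjusted p-values up to 0.158 for ADRM1, and 0.240 and 0.263 for KIAA0368. PSMG3, an assembly chaperone of the core, and USP14, a deubiquitinase that binds the base, had fold changes of -0.27 and -0.16 in R175H cells and were not called.

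The regulators of proteasome gene expression had 0 of 10 calls in either direction against GFP in edgeR. At an unadjusted p below 0.05 there were 2 lower and 2 higher in R175H cells, 2 lower and 1 higher in R248Q cells and 0 in R273H cells, and against GFP replicate 2 alone 1 was called lower and 1 higher in R175H cells, against 5.56% and 6.54% of all genes. NFE2L1 had fold changes of 0.15, 0.09 and 0.06 in R175H, R248Q and R273H cells, the first with an adjusted p of 0.107 in edgeR. DDI2, the protease that releases NFE2L1 from the endoplasmic reticulum, had 7.1 and 6.3 CPM in R175H cells, 9.9 and 11.9 CPM in R248Q cells and 10.05 and 7.5 CPM in R273H cells, against 5.4 and 8.3 CPM in GFP cells. Its R248Q libraries lay above those of R175H and GFP, with a fold change of 0.71 against R175H (SE 0.21, adjusted p = 0.0494, edgeR), a call lost in 10 of 18 settings and without any 1 mutant library, with adjusted p-values up to 0.345. MAFG, a small Maf partner, NGLY1, which deglycosylates NFE2L1, and AKIRIN2, which brings proteasomes into the nucleus, had fold changes of -0.23, 0.21 and -0.25 in R175H cells, with no call in the fit to all 8 libraries. NGLY1 was called higher against GFP replicate 2 alone, at 0.31 (adjusted p = 0.00443, edgeR), and AKIRIN2 lower, at -0.31 (adjusted p = 0.0194, edgeR). Of 14 ubiquitin genes, activating enzyme and shuttles, 2 were lower and 0 higher in R175H cells, against 4.59% and 6.39% of all genes, and 0 were called in R248Q or R273H cells against GFP in edgeR, where 5 and 1 were lower and 0 higher at an unadjusted p below 0.05. Against GFP replicate 2 alone 4 were called lower and 2 higher in R175H cells, against 5.56% and 6.54% of all genes. VCP, the unfoldase that extracts ubiquitinated proteins, had 503.3 and 518.7 CPM in R175H cells, 548.2 and 545.2 CPM in R248Q cells and 558.9 and 554.3 CPM in R273H cells, against 596.7 and 582.7 CPM in GFP cells, with no overlap between mutants and GFP. Its fold change in R175H cells was -0.21 (SE 0.05, adjusted p = 0.0150, edgeR). That of SQSTM1, a ubiquitin-binding autophagy receptor, was -0.20 (SE 0.05, adjusted p = 0.0241, edgeR). The VCP call was lost in 3 of 18 settings and the SQSTM1 call in 7. Only the groups compared ended both, and the replicate block that of SQSTM1. Both were called against GFP replicate 2 alone, and both were lost without either R175H replicate, SQSTM1 also without either R248Q replicate or R273H replicate 2, with adjusted p-values up to 0.148 and 0.181. NPLOC4, a cofactor of VCP, was higher in R248Q than in R175H cells at 0.25 (SE 0.06, adjusted p = 0.0179, edgeR), which was lost without either R175H or either R248Q replicate, with adjusted p-values up to 0.212.

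Exons of 8 of the 39 members overlap those of another row of the table in GENCODE 29, 7 of them on the opposite strand. The largest overlap is that of PSMC1 with NRDE2, over 3654 bases, followed by PSMC5 with FTSJ3 over 332 bases and PSMD13 with SIRT3 over 219 bases. No source used here gives the strand setting of the counting, so the values of these genes are uncertain. None of the 3 was called in the fit to all 8 libraries. Of the members called in that fit, PSME1 overlaps EMC9 over 3 bases and PSME4 overlaps ACYP2 over 3 bases. PSME2, also called, overlaps RNF31 over 21 bases and MIR7703 over 1 base.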

How the data were processed

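Messenger RNA of 8 HGC27 libraries, 2 for each of R175H, R248Q, R273H and GFP, was analysed as raw read counts per gene deposited by the authors. The submitters' processing notes name bcl2fastq, STAR 2.5 and the hg19 build. No source used here states the counting step, annotation release or strand setting. Library totals were 6800463 to 11788035 counts.

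Tests used edgeR 4.0.16 in R 4.3.3. The filter was filterByExpr (minimum count 10, total count at least 15), scaling was by TMM, and the quasi-likelihood fit had 1 mean for each group, all 8 libraries and 4 residual degrees of freedom. A gene was called where the p adjusted by Benjamini-Hochberg over 13213 genes was below 0.05. SE values are from that model and SD values are between libraries in TMM-normalised CPM. The 6 comparisons were each mutant against GFP and each pair of mutants.

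The members, the wider lists, the rule for named genes and the alternatives were chosen with earlier results of these data known. Values in every library are given for members called in at least 1 comparison and for PSMB5, PSMB6 and PSMB7. Of the wider lists, up to 4 members with the lowest p against GFP are named, with PSMB8, PSMB9 and PSMB10, and NFE2L1 was named after its values were seen. Results for 2 genes are not reported here.

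Alternatives changed the scaling (size factors of DESeq2, or library size without TMM), the filter (at least 1 count, or a mean of 1 CPM), the test (DESeq2 1.42.0 or limma-voom 3.58.1) and the samples (the compared groups alone, or without each library in turn), or added a replicate block or a loess correction for transcript length, the last also without GFP replicate 1. Lengths came from GENCODE 29, matched by symbol for 93.4% of tested genes, and promoters from RefSeq on GRCh38.p14. The fit was tested on simulated counts. Expression values carry no coordinates, so that the 2 builds were not combined.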

Additional observations from a re-analysis of the deposited data

How the results depend on the processing

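Lower calls in R175H cells against GFP numbered 12 with library size alone, 2 with only the groups compared, 14 with the length correction, 11 with the length correction without GFP replicate 1, and 2 to 31 leaving out 1 library. In R248Q cells they numbered 11 without the count filter, 1 in DESeq2, 0 with only the groups compared, 3 and 0 with the length correction with and without GFP replicate 1, and 0 to 28 leaving out 1 library. Higher calls there were 1 without the filter and 0 to 1 leaving out 1 library. In R273H cells lower calls were 1 without the filter, 1 with the length correction and 0 to 19 leaving out 1 library. For R248Q against R175H, lower calls were 3 with only the groups compared. Higher calls were 6 with the length correction, against 5.87% of all genes. For R273H against R175H, higher calls were 0 in DESeq2, 6 with only the groups compared, 3 and 13 with the 2 length corrections, and 0 to 8 leaving out 1 library. For R273H against R248Q, only the groups compared gave 1 lower and 4 higher. The share of all genes was not computed for library size alone, no count filter, DESeq2 or only the groups compared. Nor was it computed for most fits that left out a library, so those counts have no background beside them.

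Leaving out 1 library, the members' median against GFP ranged over -0.222 to -0.0819 for R175H, -0.224 to -0.0903 for R248Q and -0.166 to -0.0165 for R273H cells. The length correction moved the R248Q median to -0.0654, and the same correction without GFP replicate 1 moved the 3 medians to -0.0957, -0.0573 and -0.0252. Core minus regulatory medians ranged over -0.00199 to 0.0670, -0.0839 to 0.00236 and -0.0665 to 0.0154 leaving out 1 library. The R248Q value was -0.0146 with the length correction, and without GFP replicate 1 as well the R175H value was 0.0575 and the R273H value -2.66e-05. Signs turned for uncalled genes, for PSMB6 in R248Q cells at 0.00217 with the length correction without GFP replicate 1. In R273H cells without GFP replicate 1 they turned for PSMB5, which ranged over -0.221 to 0.0144 leaving out 1 library, PSMB6 at 0.0359 and PSMB7, whose values leaving out 1 library ranged over -0.129 to 0.0764, with 0.0171 without R273H replicate 1, and were 0.0339 and 0.0469 with the 2 length corrections. The cause was not tested.

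With the replicate number as a block, 1 member was called lower in R248Q cells, 1 higher in R248Q against R175H cells and 0 higher in R273H against R175H cells. Replicate deviations correlated between groups at -0.24 to 0.07, with 0.02 to 0.07 between mutants and values below 0 with GFP. These values cannot decide whether the number pairs the libraries, since no label says what it marks. With 2 libraries a group, the spread is borrowed across groups and genes, and leaving out 1 library leaves its group with a lone library that is assumed to vary like the others. Leaving out GFP replicate 1 moved each of the 3 medians against GFP toward 0. Every member had at least 266 counts in every library, and counting error adds to the spread most for the members with the fewest counts.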
